A study of Mus musculus with 6 samples.

Results

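The 36 genes described here encode the enzymes and regulators of fatty acid and triglyceride synthesis in the liver. They were chosen by symbol from a count table of 54232 genes, and all 36 were found in it, once each. All 36 also passed the filter on low counts, among 13304 genes that were tested. RNA was sequenced from livers of mice aged 8 weeks on normal chow, 3 Nogo-/- (knockout) and 3 wild-type littermates. Nogo is encoded by Rtn4, a reticulon gene of the endoplasmic reticulum, and the labels do not say which part of it was removed or in which cells. The libraries are named by genotype and label number, as wild type 2, 4 and 11 and knockout 1, 2 and 4. The labels speak of mice and of 3 parallels, without saying that each library is a separate animal, so p-values cover only the spread between the libraries sequenced.

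Liver makes fatty acids from citrate that leaves the mitochondria. ATP citrate lyase turns citrate into cytosolic acetyl-CoA, acetyl-CoA carboxylase makes malonyl-CoA, and fatty acid synthase joins these units into palmitate with NADPH. Elongases and desaturases then lengthen and desaturate the chain. Acyltransferases place acyl chains on glycerol 3-phosphate, and the lipins remove the phosphate from phosphatidic acid, on the way to triglyceride. The transcription factors SREBP-1c, which insulin activates, and ChREBP, which glucose activates, are known to induce many of these genes.

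Levels are given as CPM, the counts of a gene per 1000000 counts of its library, with library sizes adjusted by TMM. A gene was called at an edgeR quasi-likelihood adjusted p under 0.05 (Benjamini-Hochberg over all tested genes, two-sided), and only called genes are said to rise or fall. Library totals ran from 17568223 to 20902369 counts, and a floor of 3 counts stood at 0.139 to 0.199 CPM. Rtn4 had 40.5, 52.8 and 55.97 CPM in wild type 2, 4 and 11 and 4.63, 8.22 and 4.69 CPM in knockout 1, 2 and 4, so every library carried the Rtn4 level of its label. Mitochondrially encoded genes took 6.17% to 6.90% of the counts in wild type, against 28.6%, 19.7% and 11.8% in knockout 1, 2 and 4. The hepatocyte gene Alb, albumin, lay between 49073 and 70802 CPM in all 6 libraries. Summed, 6 hepatocyte markers with Alb among them lay at 84324 to 101806 CPM in wild type and 73314 to 107118 CPM in knockout. Cyp2e1 lay lower in knockout and Apoa1 higher, both without overlap (log2 fold changes −0.85 ± 0.33 and 0.61 ± 0.23 SE), and the other 4 overlapped. Of 6 adipocyte markers Lep was at 0 in all 6 libraries, Adipoq at 0 in 5 and Plin1 at 0 in 5. Cfd, which was not tested, lay higher in knockout without overlap (0.16 to 0.42 CPM in wild type, 0.54 to 2.09 in knockout). Fabp4 and Cidec overlapped and were not called (0.60 ± 0.28 and 0.11 ± 0.32). The summed list lay at 10.7 to 13.8 CPM in wild type and 13.9 to 21.5 CPM in knockout. Of 6 lymphocyte markers 5 were tested and 4 rose (Cd79a, Ccl5, Nkg7 and Trbc2), with summed levels of 7.55 to 11.3 and 14.8 to 30.2 CPM. These were low genes, Nkg7 with only 3 to 46 counts per library. Among 5 sinusoidal endothelial markers 3 fell (Lyve1, Clec4g and Kdr), with sums of 104 to 132 and 62.9 to 95.7 CPM. One of 5 cholangiocyte markers, Epcam, fell, and the sums were 41.7 to 61.1 and 31.6 to 50.8 CPM. No marker of hepatocytes, Kupffer cells or stellate cells was called, and the part of these cell types in the results was not tested. In whole liver, fewer cells of a type and less RNA per cell cannot be told apart.

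The stretches of DNA before the start of 4 members are printed because they stand at the start sites of genes whose levels differed in opposite directions. Gpam and Acly had the smallest adjusted p of the members, Fads3 was 1 of 2 that rose, and Fasn, the central enzyme, just missed the threshold. They were picked after their values were seen. Each is the run of 250 bases that ends just before the RefSeq gene start (GRCm38.p6, the mm10 build), written 5′ to 3′ on the strand of the gene. Capitals mark a CCAAT box (CCAAT, or ATTGG on the other strand) and a GC box (GGGCGG, or CCGCCC on the other strand), and neighbouring matches can overlap. An E-box (CACGTG) or a match to the sterol regulatory element letters TCACNCCAC would also be in capitals, and these 4 windows hold none.
Gpam, chr19:55127239-55127488, minus strand: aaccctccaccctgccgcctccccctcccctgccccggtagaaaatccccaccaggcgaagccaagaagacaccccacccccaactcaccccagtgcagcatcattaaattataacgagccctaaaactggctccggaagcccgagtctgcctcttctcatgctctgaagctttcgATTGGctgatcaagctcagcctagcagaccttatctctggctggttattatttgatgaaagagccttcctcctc
Acly, chr11:100528001-100528250, minus strand: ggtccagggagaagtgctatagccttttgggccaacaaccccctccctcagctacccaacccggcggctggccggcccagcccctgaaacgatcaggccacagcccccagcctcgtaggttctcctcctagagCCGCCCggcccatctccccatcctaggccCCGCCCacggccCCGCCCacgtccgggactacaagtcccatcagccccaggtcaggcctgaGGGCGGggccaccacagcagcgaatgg
Fads3, chr19:10041298-10041547, plus strand: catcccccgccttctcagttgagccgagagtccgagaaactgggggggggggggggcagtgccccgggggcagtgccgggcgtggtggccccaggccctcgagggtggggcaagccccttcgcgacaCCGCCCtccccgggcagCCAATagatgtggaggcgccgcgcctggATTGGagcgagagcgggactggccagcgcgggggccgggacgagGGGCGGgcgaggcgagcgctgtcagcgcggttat
Fasn, chr11:120824548-120824797, minus strand: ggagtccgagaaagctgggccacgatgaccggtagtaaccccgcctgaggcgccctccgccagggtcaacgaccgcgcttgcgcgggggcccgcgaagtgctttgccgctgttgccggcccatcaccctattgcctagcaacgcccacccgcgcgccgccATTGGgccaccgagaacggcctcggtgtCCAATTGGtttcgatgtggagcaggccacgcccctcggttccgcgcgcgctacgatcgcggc
The Gpam window printed here held 1 CCAAT box, at 69 bases from the start, and a GC content of 54.8%. A second Gpam window, chr19:55099478-55099727, held 1 GC box and no CCAAT box, with a GC content of 66%. Acly had 4 GC boxes and no CCAAT box, with a GC content of 68.8%. In Fads3 there were 2 GC boxes and 2 CCAAT boxes, and in Fasn 3 CCAAT matches of which 2 overlap. RefSeq gave windows for 30 of the 36 members, 43 in all because some genes have more than 1 start. Scd1, Scd2, Fads1, Gpat4, Dgat1 and Dgat2 were not among them. CCAAT was found in 17 of the 43 member windows and in 33.9% of 32841 windows of the same length over all genes used here. GC boxes were found in 26 of the 43 and in 32.7% of all windows. An E-box stood in 4 of the 43, in Elovl5, Hacd3, Lpin2 and Mlxipl, and in 6.02% of all windows. TCACNCCAC matched once, in a second Mlxipl window, against 1.05% of all windows. A TATA box (TATAAA on either strand), which is not marked in capitals, stood in 1 of the 43, in Acacb, and in 12.4% of all windows. The median GC content was 61.2% in member windows and 52.4% in all. A match of letters is a description and does not show that a factor binds there.

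Of the 36 members, 6 fell in knockout liver and 2 rose. Gpam, Acly, Fads2, Me1, Acaca and Fads1 fell, and Fads3 and Agpat1 rose. Over all tested genes 8.29% were called lower, 8.76% were called higher and 17.0% were called in either direction. The 6 falls made up 16.7% of the members, and 2 falls belonged to the supply of acetyl-CoA and NADPH, 1 to chain synthesis, 2 to desaturation and 1 to glycerolipid assembly. No regulator was called. In 14 members (38.9%) all 3 knockout levels lay below all 3 wild-type levels, where 19.2% of all tested genes did so. In 3 members, Fads3, Agpat1 and Mlxipl, they lay above, where 19.7% of all tested genes did. Log2 fold changes were below 0 in 24 of the 36 members and in 49.1% of all tested genes. The median log2 fold change was −0.24 over the members and 0.01 over all tested genes, with a range from −2.72 for Gpam to 0.89 for Mlxipl.

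**Figure D1:**
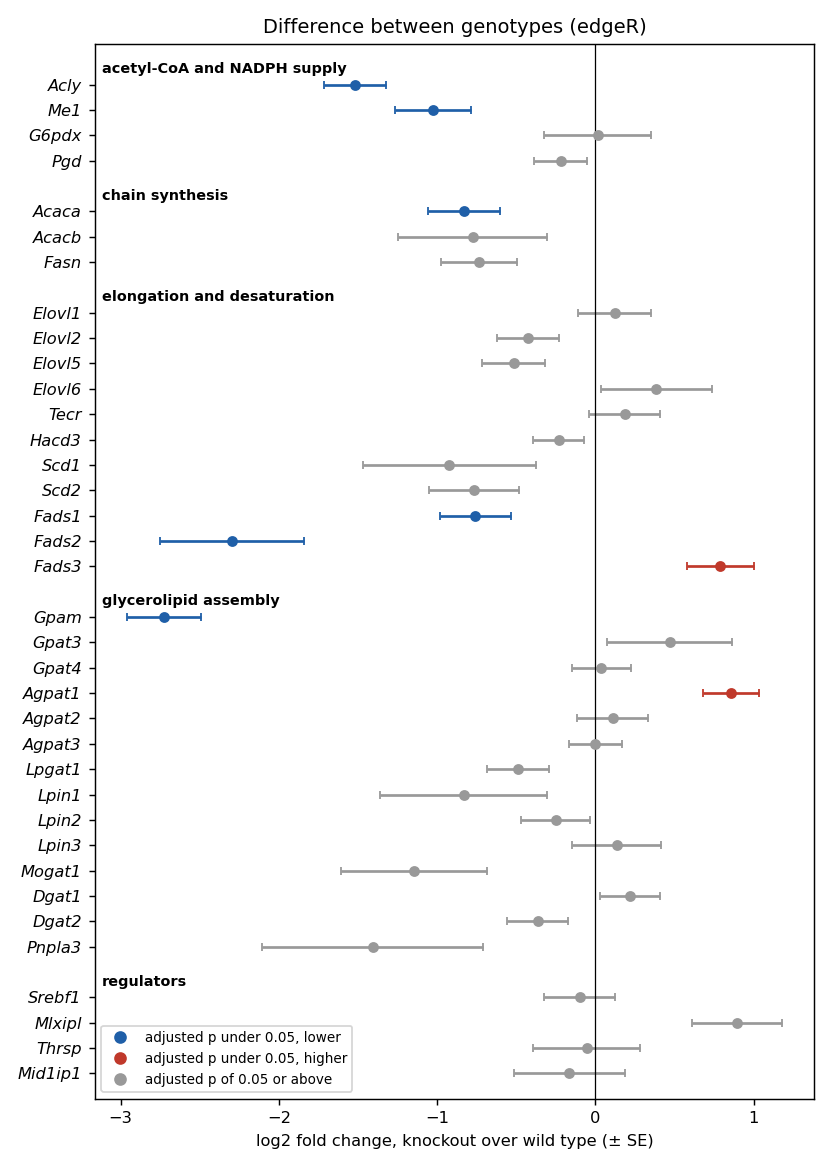
The log2 fold change of each member, knockout over wild type, is plotted with its SE from edgeR (n = 3 per genotype), by step of the pathway. Gpam at −2.72, Fads2 at −2.30 and Acly at −1.52 lie farthest to the left, and the 4 regulators hold no called gene.

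The number of calls depended on single libraries. Without wild type 2 edgeR gave 3 falls and 0 rises, with 10 members lower and 3 higher at an unadjusted p under 0.05. Without wild type 4 it gave 3 and 0, with 7 lower and 3 higher at that unadjusted p. The counts were 5 and 1 without wild type 11. They were 4 and 1 without knockout 1, 3 and 1 without knockout 2, and 7 and 3 without knockout 4. Gpam, Acly and Fads2 passed in all 6 of these fits. With knockout 4 alone against wild type only Gpam passed, in a fit where a single knockout library is assumed to vary like wild type. When the mitochondrial share was added as a covariate, edgeR called 0 members, and 5 lay lower and 1 higher at an unadjusted p under 0.05; the shares of the genotypes do not overlap, so that fit separates them poorly. Scaling by library totals moved the median of all genes to −0.16 and gave 8 falls and 1 rise in place of 6 and 2.

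Both called genes of the supply step fell, and the pentose phosphate pair did not pass. Acly, the ATP citrate lyase (ENSMUSG00000020917, chromosome 11, 100476353 to 100528000, minus strand, mm10), had 389, 474 and 385 CPM in wild type 2, 4 and 11 and 129, 132 and 174 CPM in knockout 1, 2 and 4. The groups were far apart, with knockout 4 nearest to wild type. Acly fell 2.86-fold, from 416 ± 50.2 to 145 ± 25.2 CPM (SD, n = 3 each; log2 fold change −1.52 ± 0.20 SE, edgeR adjusted p = 0.00425). Over all alternative fits, the one with the mitochondrial share included, the value of Acly ran from −1.69 to −1.18. Me1, the cytosolic malic enzyme that makes NADPH (ENSMUSG00000032418, chromosome 9, 86581371 to 86695953, minus strand), had 229, 278 and 144 CPM in wild type and 95.6, 104 and 120.1 CPM in knockout. The groups did not overlap, but wild type 11 came close to knockout 4. Its change was −1.02 ± 0.24 (edgeR adjusted p = 0.0197), and 28.3% of its 50-base words occur in other annotated genes, so its level is uncertain. The call for Me1 was lost without wild type 2, wild type 4, knockout 1 or knockout 2, at edgeR adjusted p-values of 0.0618, 0.0893, 0.0759 and 0.0656. G6pdx and Pgd encode the dehydrogenases of the pentose phosphate pathway, which also yield NADPH. Their values were 0.01 ± 0.34 and −0.22 ± 0.17, and their groups overlapped. G6pdx rested on 58 to 123 counts per library, and 16.9% of its 50-base words occur in other annotated genes.

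In chain synthesis Acaca fell, Fasn lay lower in every knockout library without passing, and Acacb split the knockout libraries. Acaca, the cytosolic acetyl-CoA carboxylase that makes malonyl-CoA for synthesis (ENSMUSG00000020532, chromosome 11, 84129672 to 84401651, plus strand), had 142, 200.04 and 109 CPM in wild type and 80.8, 80.1 and 92.5 CPM in knockout. The 3 knockout libraries lay close together, and the spread was in wild type, where wild type 4 was highest and wild type 11 lowest. The change was −0.83 ± 0.23 (edgeR adjusted p = 0.0328), and 30.4% of its 50-base words occur in other annotated genes too. It was lost without wild type 2, wild type 4, knockout 1 or knockout 2 (edgeR adjusted p = 0.0771, 0.149, 0.103 and 0.0994). Fasn, the fatty acid synthase, had 726, 932 and 1309 CPM in wild type 2, 4 and 11 and 593, 521 and 670.0 CPM in knockout 1, 2 and 4. The highest knockout library stood below the lowest wild-type library, and wild type 11 was the highest of all. The log2 fold change of Fasn was −0.73 ± 0.24 (edgeR adjusted p = 0.0577). It passed in 5 of the other fits, among them those without knockout 4 (edgeR adjusted p = 0.0271) and with DESeq2 (adjusted p = 0.0179). Another of the 5 used no low-count filter, where the SE differed little between genes. Acacb, the carboxylase of the mitochondrial surface whose malonyl-CoA restrains fatty acid oxidation, had 65.0, 98.8 and 58.5 CPM in wild type and 84.4, 17.7 and 27.9 CPM in knockout. Knockout 1 sat inside the wild-type range, and knockout 2 and 4 lay below it. Its value was −0.77 ± 0.47 (edgeR adjusted p = 0.271), with −1.71 without knockout 1 (edgeR adjusted p = 0.0239) and −0.40 without knockout 2 (edgeR adjusted p = 0.559).

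**Figure D2:**
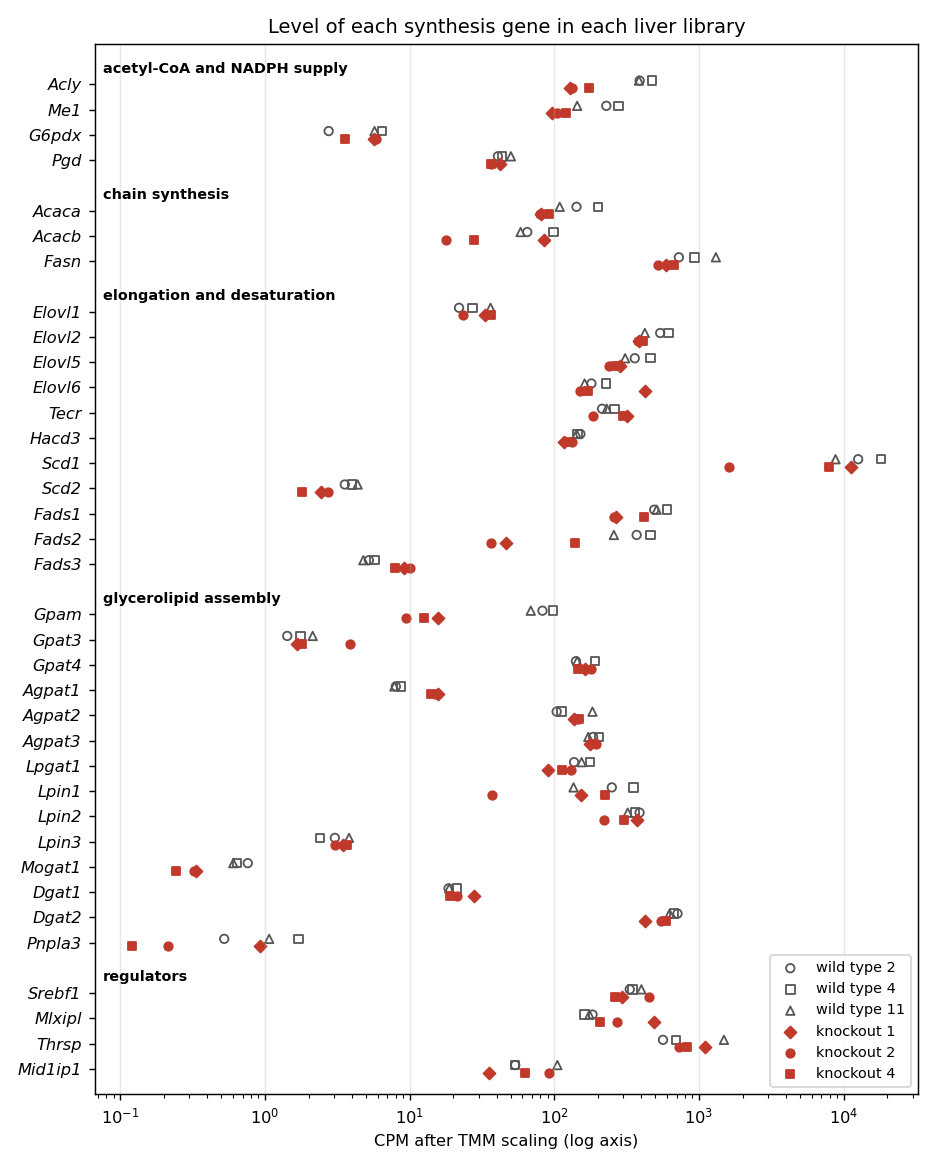
Each point is the level of a member in 1 liver library, in CPM after TMM scaling on a log axis, with open grey symbols for wild type and filled red symbols for knockout. Gpam, Acly and Fads2 show gaps between the genotypes, and Scd1 and Lpin1 show a knockout 2 point far below the other knockout libraries.

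Desaturase genes moved apart from each other. The front-end desaturases Fads1 and Fads2, which introduce double bonds on the carboxyl side of polyunsaturated chains, fell, while their neighbour Fads3 rose. These 3 genes lie in 1 cluster on chromosome 19, Fads3 from 10041569 to 10060110, Fads2 from 10062765 to 10101746 and Fads1 from 10182888 to 10196877 (mm10), with Fads2 on the minus strand. Fads2, the delta-6 desaturase (ENSMUSG00000024665), had 371, 461 and 258 CPM in wild type and 46.2, 36.8 and 139 CPM in knockout. All knockout values lay below wild type, with knockout 4 nearer to wild type than the others. It fell 4.92-fold (−2.30 ± 0.45, edgeR adjusted p = 0.0116), and its value was −3.14 without knockout 4, the library with the smallest mitochondrial share of its genotype. With that share in the model it was −1.19 (edgeR adjusted p = 0.575), and for Fads1 the same fit gave −0.26 (edgeR adjusted p = 0.813). Fads1, the delta-5 desaturase (ENSMUSG00000010663), had 490.4, 599 and 509.7 CPM in wild type and 266, 261 and 418 CPM in knockout. Here too knockout 4 stood between the other knockout libraries and wild type. The change of −0.76 ± 0.22 (edgeR adjusted p = 0.0426) was kept past the threshold without knockout 4 (edgeR adjusted p = 0.00186). It was lost without wild type 2, 4 or 11 (0.093, 0.158 and 0.0746) and without knockout 1 or 2 (0.141 and 0.126), all edgeR adjusted p-values. Fads3 (ENSMUSG00000024664) was a low gene, at 5.22, 5.71 and 4.78 CPM in wild type and 9.14, 10.1 and 7.88 CPM in knockout, from 103 to 188 counts per library. Its groups did not overlap and it rose 1.73-fold (0.79 ± 0.21, edgeR adjusted p = 0.0313). That rise was also kept without knockout 4 (0.0145) and lost without each of the other libraries (0.0743 to 0.117), all edgeR adjusted p-values.

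Scd1, the stearoyl-CoA desaturase that makes monounsaturated fatty acids, was the most abundant member, also per length of transcript. Its levels were 12596, 18125 and 8786 CPM in wild type 2, 4 and 11 and 11277, 1622 and 7949 CPM in knockout 1, 2 and 4. Knockout 1 lay between wild type 11 and wild type 2, knockout 4 just below wild type 11, and knockout 2 far below all others. The change was −0.92 ± 0.55 (edgeR adjusted p = 0.259), and it was −0.46 without knockout 2 and −1.47 without knockout 1. Scd1 alone set much of the members' summed share of all counts, which was 2.16%, 2.82% and 1.74% in wild type, against 1.47%, 0.733% and 1.32% in knockout. Without Scd1 the sums were 0.778%, 0.886% and 0.839% in wild type, against 0.534%, 0.563% and 0.576% in knockout, so the groups did not overlap either way. These shares are of total counts, which include the mitochondrial genes. In TMM-scaled CPM the sums were 19693, 26422 and 16932 in wild type, against 17686, 6982 and 14070 in knockout, where knockout 1 lay above wild type 11. Scd2, a desaturase of other tissues, had only 3.56, 3.9997 and 4.37 CPM in wild type and 2.45, 2.74 and 1.81 CPM in knockout, and did not pass (−0.77 ± 0.28, edgeR adjusted p = 0.0845) although the groups did not overlap.

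No elongation gene among the 36 members was called. Elovl5, an elongase of polyunsaturated chains, had 359.8, 462 and 309 CPM in wild type and 286, 239 and 265 CPM in knockout. The groups did not overlap, yet wild type 11 was close to knockout 1, and the change of −0.52 ± 0.20 did not pass (edgeR adjusted p = 0.0974). Elovl2, which lengthens long polyunsaturated chains, and Hacd3, a dehydratase of the elongation cycle, also lay lower without overlap, at −0.43 ± 0.19 and −0.23 ± 0.16. Elovl6, which extends palmitate, ranged from 162 to 229 CPM in wild type and had 423, 151 and 171 CPM in knockout 1, 2 and 4, so that 1 knockout library stood far above the rest. Elovl1, an elongase of saturated chains, and Tecr, the reductase that closes the cycle, overlapped between genotypes (0.12 ± 0.23 and 0.18 ± 0.22).

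The first acyltransferase of glycerolipid assembly showed the largest difference among the members. Gpam encodes the glycerol-3-phosphate acyltransferase of the mitochondrial outer membrane, which opens triglyceride synthesis (ENSMUSG00000024978, chromosome 19, 55067268 to 55127238, minus strand). Its counts were 1743, 1842 and 1480 for wild type 2, 4 and 11, against 238, 177 and 209 for knockout 1, 2 and 4. In CPM these were 82.8, 98.2 and 68.7 in wild type, against 15.8, 9.504 and 12.6 in knockout, with every knockout library far below every wild-type library. Gpam fell 6.61-fold (−2.72 ± 0.23, edgeR adjusted p = 0.00101). In the fits that left out 1 library its value ran from −2.92 to −2.56, and it was −2.73 with knockout 4 alone (edgeR adjusted p = 0.0367). With the mitochondrial share in the model it was −3.00 (edgeR adjusted p = 0.11). Gpat4, the acyltransferase of the same step in the endoplasmic reticulum, had 141, 192 and 144 CPM in wild type and 163, 179.8 and 147 CPM in knockout, with overlap (0.04 ± 0.19). Its sign was negative in 8 of the other fits, and its value was −0.13 under scaling by library totals. Gpat3, another enzyme of that membrane, was low at 1.42 to 2.14 CPM in wild type and 1.66, 3.87 and 1.81 CPM in knockout (0.47 ± 0.40).

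Agpat1, an acyltransferase that makes phosphatidic acid (ENSMUSG00000034254, chromosome 17, 34604262 to 34613449, plus strand), was the other member that rose. It had 8.03, 8.75 and 7.85 CPM in wild type and 15.6, 14.98 and 14.0 CPM in knockout, with tight groups and a wide gap between them. The rise was 1.81-fold (0.86 ± 0.18, edgeR adjusted p = 0.0129), and it missed the threshold without wild type 2 or wild type 4 (edgeR adjusted p = 0.0683 and 0.0549). The more abundant Agpat2 and Agpat3, of the same enzyme family, had values of 0.11 ± 0.23 and 0.00 ± 0.17 and overlapped. Lpgat1, a lysophospholipid acyltransferase, had 137, 177 and 154 CPM in wild type and 89.8, 129.9 and 113 CPM in knockout. Its groups did not overlap and its change did not pass (−0.49 ± 0.19, edgeR adjusted p = 0.105).

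Among the lipins, which remove the phosphate from phosphatidic acid, the liver genes Lpin1 and Lpin2 did not pass. Lpin1, which is also a coactivator of transcription in fasting liver, had 249.8, 352 and 136 CPM in wild type and 152, 37.2 and 225 CPM in knockout. Knockout 2 was lowest by a wide margin, while knockout 1 and 4 lay inside the wild-type range (−0.83 ± 0.53, edgeR adjusted p = 0.292). The value was −0.39 without knockout 2, −0.49 without wild type 4 and −1.39 without knockout 4. Lpin2 had 388, 362 and 321 CPM in wild type and 374, 222 and 304 CPM in knockout, again with knockout 2 lowest (−0.25 ± 0.22, and −0.077 without that library). Lpin3 was low, at 2.40 to 3.81 CPM over the 6 libraries. Dgat2 and Dgat1 encode the unrelated enzymes that add the last acyl chain of triglyceride. Dgat2 had 711, 669 and 626 CPM in wild type and 421, 546 and 589.5 CPM in knockout, all below wild type (−0.37 ± 0.19, edgeR adjusted p = 0.208). Dgat1 had 18.6, 21.2 and 18.8 CPM in wild type and 27.8, 21.3 and 19.1 CPM in knockout, with overlap (0.22 ± 0.19). Mogat1, a monoacylglycerol acyltransferase, lay at the edge of detection with 16, 12 and 13 counts in wild type, against 5, 6 and 4 in knockout, without overlap (−1.15 ± 0.46, edgeR adjusted p = 0.109). Pnpla3, a lipid droplet enzyme known from fatty liver, had 11, 32 and 23 counts in wild type, against 14, 4 and 2 in knockout, with overlap (−1.41 ± 0.70).

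None of the 4 regulators was called by edgeR, and 1 of them, Mlxipl, had an unadjusted p under 0.05. Srebf1, which encodes SREBP-1, had 332, 346 and 399.7 CPM in wild type 2, 4 and 11 and 293, 449 and 265 CPM in knockout 1, 2 and 4. The knockout libraries lay on both sides of the wild-type range, knockout 2 above it and knockout 1 and 4 below (−0.10 ± 0.22, edgeR adjusted p = 0.788). Counts per gene do not separate the SREBP-1a and SREBP-1c transcripts, and they do not show how much of the protein was processed. Mlxipl, which encodes ChREBP, had 184, 162 and 175 CPM in wild type and 489, 271 and 207 CPM in knockout. All knockout levels were above wild type, in the order of the mitochondrial shares of 28.6%, 19.7% and 11.8%. Agpat1 and Dgat1, among others, had the same order in knockout, and Acly, Me1 and Dgat2 the reverse. A link of any gene to the share was not tested. Its value was 0.89 ± 0.28 (edgeR adjusted p = 0.0535), 1.12 without knockout 4 (edgeR adjusted p = 0.00658), 0.46 without knockout 1 (edgeR adjusted p = 0.177) and −0.20 with the mitochondrial share in the model (edgeR adjusted p = 0.838). DESeq2 called it (adjusted p = 0.0141). Thrsp, known as Spot 14, and Mid1ip1 encode partner proteins that promote acetyl-CoA carboxylase and lipogenesis. Thrsp had 564, 692 and 1488 CPM in wild type and 1099, 722 and 821 CPM in knockout, and the knockout levels lay inside the wild-type range (−0.05 ± 0.34). Mid1ip1 had 53.7, 53.6 and 105 CPM in wild type and 35.6, 91.4 and 62.4 CPM in knockout (−0.16 ± 0.35), and part of its sequence also occurs in other annotated genes.

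The libraries also differed within a genotype, in genes that were picked after their values were seen. Among wild-type livers, wild type 11 had the highest Thrsp, Fasn, Mid1ip1 and Agpat2. The ratio of the highest to the lowest wild-type library was 2.64 for Thrsp, 1.80 for Fasn, 1.96 for Mid1ip1 and 1.77 for Agpat2. The same library had the lowest Scd1, Me1, Lpin1 and Acaca of the 3, with ratios of 2.06, 1.93, 2.59 and 1.84. Among knockout livers, knockout 2 had the lowest Scd1 (6.95 between highest and lowest), Lpin1 (6.05) and Acacb (4.76). Knockout 1 had the highest Elovl6 (2.80) and Mlxipl (2.36). The coefficient of variation of Fasn was 29.9% in wild type and 12.5% in knockout, and that of Scd1 was 35.7% and 70.6%. With 3 libraries per genotype these spreads were not compared by a test. The labels give neither the time of day nor the feeding state at which the livers were taken.

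**Figure D3:**
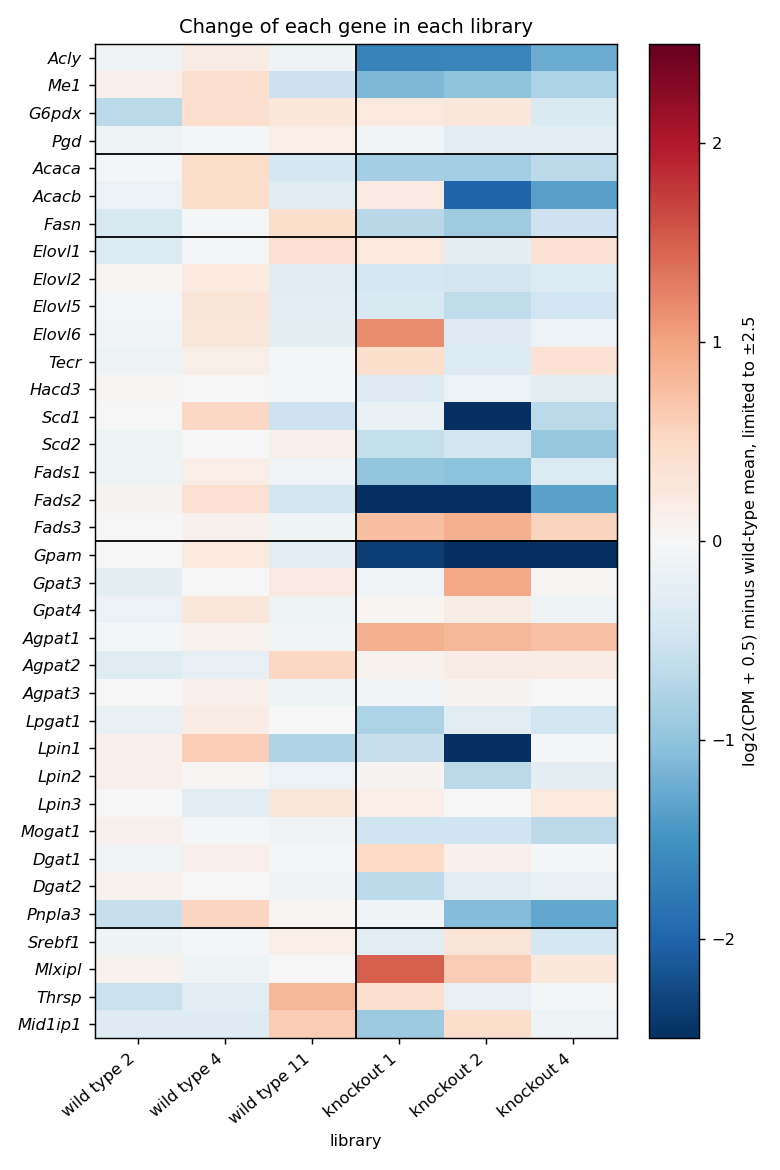
The colour gives log2(CPM + 0.5) of each member in each library minus the mean of the 3 wild-type libraries, limited to ±2.5, with lines between the steps and between the genotypes. Acly, Fads2 and Gpam are blue in all 3 knockout libraries, Fads3 and Agpat1 are red in all 3, and Scd1 and Lpin1 are darkest in knockout 2.

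Levels of different genes were compared as CPM per kilobase of annotated exon sequence. In wild type Scd1 stood first, at 2692 ± 959.9 CPM per kb (SD, n = 3), followed by Thrsp at 418 ± 229 and Dgat2 at 217 ± 13.7. Elovl2 (133 ± 24.7), Fads1 (111 ± 12.1), Fads2 (110.2 ± 30.9), Tecr (107 ± 10.7), Elovl5 (107 ± 22.2) and Fasn (90.3 ± 27.0 CPM per kb) came next, and neighbours among these 6 did not differ beyond their spread. Acly had 78.8 ± 9.51 CPM per kb in wild type, against 27.5 ± 4.78 in knockout. At the low end, Pnpla3, Mogat1, Gpat3, Scd2 and Lpin3 stayed under 1 CPM per kb in the mean of either genotype. Exon length was taken over all annotated transcripts, so genes with long minor isoforms are understated on this scale.

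The make-up of some families differed between the genotypes. Gpam gave 36.6, 33.6 and 31.8% of the summed CPM per kb of Gpam, Gpat3 and Gpat4 in wild type, against 8.71, 4.85 and 7.75% in knockout. Gpat4 accordingly took 62.2, 65.3 and 66.3% in wild type, against 89.6, 91.4 and 90.1% in knockout. The summed level of these 3 genes was 33.9, 43.9 and 32.5 CPM per kb in wild type, against 27.2, 29.4 and 24.4 in knockout, which did not overlap. Fads2 gave 52.1, 52.6 and 42.2% of the Fads genes in wild type, against 19.5, 16.4 and 32.1% in knockout, and the sum of the 3 Fads genes was 216, 266 and 185 against 71.8, 68.0 and 131 CPM per kb. For the carboxylases, Acaca gave 55.3, 53.3 and 51.2% in wild type, against 35.1, 71.8 and 65.2% in knockout, with knockout 1 below wild type and knockout 2 and 4 above it. Dgat2 supplied over 93% of the Dgat level in every library, the lowest share being 93.8% in knockout 1.

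**Figure D4:**
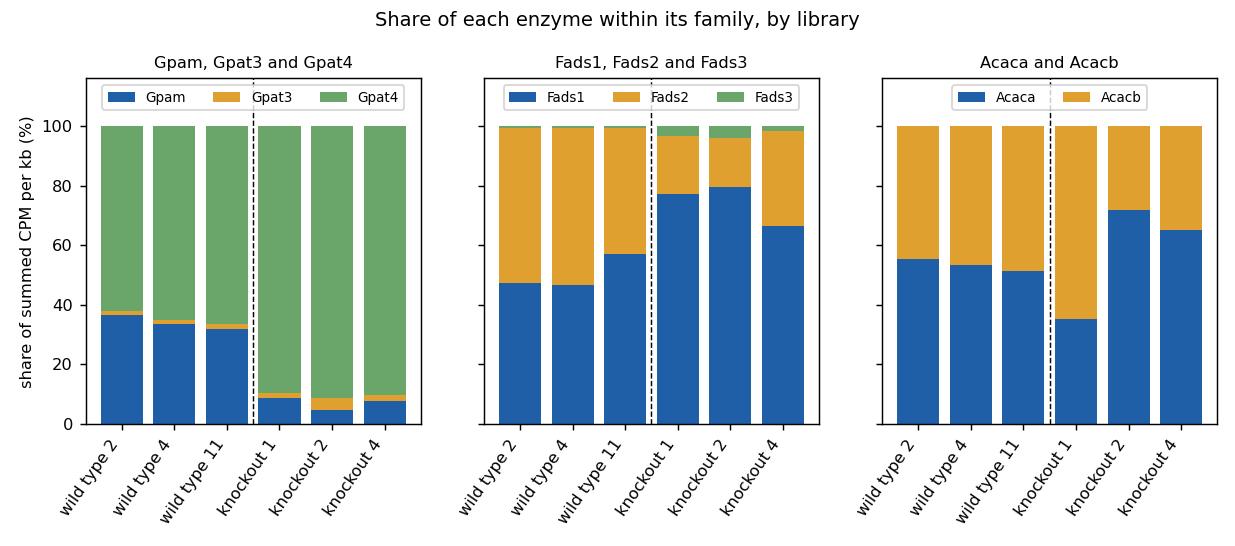
Bars show, for each library, the share of each enzyme in the summed CPM per kb of its family, in percent, with wild type left of the dashed line and knockout right of it. Gpam takes 31.8% to 36.6% in wild type and 4.85% to 8.71% in knockout, and the Acaca share goes in different directions among the knockout libraries.

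Ratios of 2 genes within a library do not depend on scaling between libraries, and 6 such pairs were compared by an exact two-sided permutation test on log2 ratios. With 3 libraries against 3 the smallest p that this test can give is 0.1, so no pair could pass. The count ratio of Gpam to Gpat4 was 0.587, 0.513 and 0.478 in wild type, against 0.0969, 0.0529 and 0.0857 in knockout, a log2 difference of −2.78 (exact permutation p = 0.1, adjusted 0.2). For Fads2 to Fads1 it was 0.756, 0.769 and 0.506 and 0.173, 0.141 and 0.332, a difference of −1.73 with the same p. Dgat2 to Dgat1 gave 38.3, 31.6 and 33.4 in wild type, against 15.2, 25.7 and 30.9 in knockout, also without overlap, but knockout 4 was next to wild type 4 (−0.58, exact permutation p = 0.1, adjusted 0.2). The pairs Acaca to Acacb, Lpin1 to Lpin2, and Acly to Acss2 overlapped, with differences of 0.27, −0.80 and −0.40 and exact permutation p-values of 0.8, 0.4 and 0.5. Acss2 makes acetyl-CoA from acetate, and in knockout 1 the ratio of Acly to it was below that of every other library.

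Further genes of the same pathway were taken from a list of 50, of which 49 were in the table and 44 were tested. Of these, 5 fell and 3 rose, against the 8.29% and 8.76% of all tested genes. In the supply step Acss2 fell (−1.11 ± 0.29, edgeR adjusted p = 0.0286), with 172, 244 and 135 CPM in wild type and 112, 54.2 and 89.1 CPM in knockout, while Slc25a1, the citrate carrier that feeds Acly, did not pass (−0.20 ± 0.18). Mecr, a reductase of mitochondrial fatty acid synthesis, fell (−0.84 ± 0.25), and Mcat and Cbr4 of the same pathway lay lower without overlap and without passing (−0.72 ± 0.22 and −0.76 ± 0.26). Oxsm of that pathway lay higher without overlap and Ndufab1 overlapped, and neither passed (0.30 ± 0.16 and 0.02 ± 0.21). Hsd17b12, the ketoacyl reductase of the elongation cycle, fell (−0.76 ± 0.22), as did Cyb5b, a cytochrome b5 of the mitochondrial outer membrane (−0.72 ± 0.18). Cyb5a, the electron donor of the desaturases in the endoplasmic reticulum, lay higher without overlap and did not pass (0.45 ± 0.21). In glycerolipid assembly Gpd1l, a glycerol-3-phosphate dehydrogenase, fell (−0.59 ± 0.18), and Ctdnep1, a phosphatase that activates lipins, rose (0.79 ± 0.16). Ctdnep1 had 28.6, 27.2 and 29.2 CPM in wild type and 48.0, 54.0 and 44.5 CPM in knockout. Among the regulators Usf1 and Usf2, which bind E-boxes of lipogenic promoters, rose (0.66 ± 0.20 and 0.81 ± 0.20). Usf2 had 44.1, 49.3 and 43.5 CPM in wild type and 100.4, 78.1 and 60.9 CPM in knockout, again in the order of the mitochondrial shares, and its value was 0.21 with that share as a covariate. The same fit gave −0.18 for Hsd17b12, −0.31 for Mecr and 0.28 for Usf1, the called genes that it moved nearest to 0. The other called genes stayed farther from 0 in every alternative fit, that one included. Their values ran from −1.56 to −0.86 (Acss2), −0.89 to −0.49 (Cyb5b), −0.76 to −0.37 (Gpd1l) and 0.62 to 0.84 (Ctdnep1). Scap, Insig1 and Nr1h3 encode the SREBP escort, its retention factor and the oxysterol receptor LXR alpha. They did not pass (−0.07 ± 0.18, 0.04 ± 0.33 and −0.23 ± 0.17), and Nr1h3 lay lower without overlap. The related Insig2 also lay lower without overlap and the related Nr1h2 higher, and neither passed (−0.45 ± 0.16 and 0.35 ± 0.17). Scap, the Insig genes and the Nr1h genes were picked after their values were seen. Insig1 was highest in wild type 11, at 697 CPM against 314 and 289 CPM in wild type 2 and 4, as Fasn and Thrsp were. None of these 8 calls by edgeR held without wild type 2 or without wild type 4, where 7 and 9 of the tested genes lay lower and 3 and 3 higher at an unadjusted p under 0.05. The counts were 3 falls and 1 rise without wild type 11, 1 and 1 without knockout 1, 0 and 1 without knockout 2 (8 and 6 at an unadjusted p under 0.05), and 11 and 3 without knockout 4.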

How the data were processed

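Whole-liver RNA of 6 libraries was measured by RNA sequencing. The authors deposited raw counts per gene, not normalized, for 54232 Ensembl genes. Genome build mm10 is named in the submitters' processing notes, while the aligner, counter and strand setting were not given in the sources used here. Columns were matched to samples by title. From these counts, R 4.3.3 and edgeR 4.0.16 were used with TMM scaling, filterByExpr, and quasi-likelihood tests (glmQLFit, glmQLFTest) of knockout against wild type, with no covariate. P-values were adjusted by Benjamini-Hochberg over all 13304 tested genes. SE was the absolute log2 fold change over the root of F. Positions and exon lengths came from GENCODE M21, which held 54165 of the identifiers, and promoter windows from RefSeq. Alternatives used RLE factors, library totals, other filters, DESeq2 1.42.0, limma-voom (limma 3.58.1), a replicate block, the mitochondrial share as a covariate, removal of mitochondrial genes, removal of length and GC trends, each library left out, and knockout 4 alone. The code was tested on simulated data.

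The members, the further pathway genes and the cell type markers were chosen with earlier results of these data known. Values in every sample are given for members with an unadjusted p under 0.05, for Srebf1, Mlxipl, Fasn, Acaca, Scd1, Dgat1 and Dgat2, and for both genes of each ratio. Further pathway genes are named where called, and the others named were picked after their values were seen. Libraries of 1 genotype differed by more than counting noise, which does not show whether they came from separate animals. Hsd17b8 was not analysed here.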

Additional observations from a re-analysis of the deposited data

How the results depend on the processing

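Counts below are of genes called lower and higher. Scaling by library totals moved the median of all genes to −0.16 and gave 690 higher genes in all, 1 higher member, 0 higher further pathway genes (2 at an unadjusted p under 0.05 in edgeR) and a member median of −0.43. No low-count filter gave 1832 lower genes in all, 10 lower members and 9 lower further genes. In that fit the SE differed little between members at moderate or high counts. It was 0.24 for Scd1, 0.22 for Lpin1 and 0.24 for Agpat1, in place of 0.55, 0.53 and 0.18 in the main fit. Its added calls, Scd1 and Lpin1 among them, therefore take little account of how much each gene varied between libraries. With length and GC trends removed 1 further gene was higher. When the mitochondrial share was a covariate, edgeR called 0 genes in both directions, among all genes (563 lower and 583 higher at an unadjusted p under 0.05), members (5 and 1) and further genes (1 and 1), with a member median of −0.37; the cause was not tested. Knockout 4 alone, assumed to vary like wild type, gave 9 and 16 of all genes, 1 and 0 members (8 and 1 at an unadjusted p under 0.05), 0 and 0 further genes (3 and 3) in edgeR, and a Fads2 to Fads1 difference of −1.003. Leaving out 1 library at a time, edgeR gave 330 to 2161 lower and 300 to 1885 higher genes, 3 to 7 and 0 to 3 members (at least 7 and 3 at an unadjusted p under 0.05), 0 to 11 and 0 to 3 further genes (at least 7 and 3), and a member median of −0.38 to −0.26. The ratio differences then ran from −2.96 to −2.52 (Gpam to Gpat4), −0.80 to −0.28 (Dgat2 to Dgat1), −0.18 to 0.94 (Acaca to Acacb), −1.30 to −0.23 (Lpin1 to Lpin2), −2.09 to −1.47 (Fads2 to Fads1) and −0.63 to −0.09 (Acly to Acss2).

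Label numbers 2 and 4 occur in both genotypes. Same-numbered libraries did not deviate together (correlations of −0.0488 and 0.0578 over all tested genes). So few pairs cannot show whether the numbers mark a pairing. With a replicate block on these numbers edgeR called 771 higher genes in all, 9 lower and 0 higher members (2 higher at an unadjusted p under 0.05), and 2 lower and 1 higher further genes. In that fit Gpat4 was −0.017 and Srebf1 0.023.

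Single members were followed through the alternatives if they had an unadjusted p under 0.05 or stood on a fixed list, which left out Thrsp, Mid1ip1 and Pnpla3. Of the members followed, 5 that were not called turned sign under some alternative. Gpat4 was −0.13 with library totals, −0.019 without a filter, −0.055 under the covariate fit and −0.12 for knockout 4 alone. Leaving out 1 library gave −0.053 to 0.18 for Gpat4, below 0 without wild type 2, wild type 11 or knockout 2. Srebf1 was 0.034 without knockout 4. The mitochondrial covariate gave −0.23 for Dgat1, 0.0098 for Dgat2 and −0.20 for Mlxipl, and knockout 4 alone gave −0.032 for Dgat1. Depth limits Mogat1 and Pnpla3, which had 2 to 32 counts per library.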
